A study of Mus musculus with 16 samples.

Results

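The 200 most abundant long non-coding RNA (lncRNA) genes were followed in tumour-bearing mouse lungs after radiation, with and without an antibody against PD-1. They are the genes that the deposited table classes as lncRNA and places on a chromosome other than X or Y. These were ranked by their mean expression over 16 libraries in CPM (reads scaled to a common total per library), and the first 200 of 4618 such genes were kept, so the genes were chosen by their CPM level. The whole table holds 30095 genes. Because the ranking used the mean level, the levels below are a description with no test. The differences between groups were not used by the ranking and were tested.

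RNA came from lungs of C57BL/6 mice that carried tumours of HKP1, a mouse lung adenocarcinoma line, with 3 to 4 mice pooled per library. The lungs had received 0, 4 or 8 Gy of radiation together with anti-PD-1, which blocks a checkpoint receptor of T cells, or IgG, the control antibody, and were taken 24 to 48 hours later. There were 2 libraries with anti-PD-1 at 0 Gy, 3 at 4 Gy and 3 at 8 Gy, and 3 libraries with IgG at 0 Gy, 2 at 4 Gy and 3 at 8 Gy. All groups carry the tumour and an antibody, the unirradiated ones included. Whole lung was ground, so tumour, lung and immune cells are measured together, and fewer cells of a type cannot be told apart from less RNA per cell. Nothing in the labels says that the libraries of a group came from separate experiments, and the p-values speak only of the spread among these pools, which may be technical. The numbers after the letter S in the titles run from 13 to 17 at 0 Gy, 26 to 30 at 4 Gy and 31 to 36 at 8 Gy. The labels do not say what these numbers mean. If they follow the handling of the libraries, dose cannot be told apart from it.

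Long non-coding RNAs are transcribed and often spliced like messenger RNAs but code for no long protein. Some build nuclear bodies, as Neat1 does for paraspeckles. Others are the precursors from which small nucleolar RNAs (snoRNAs, which guide the modification of ribosomal RNA) or microRNAs are cut, and many are transcribed across a protein-coding gene from the opposite strand. In lung, Fendrr and the transcript beside Nkx2-1 are known from mesenchyme and from distal epithelium.

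Of the 200 genes, 8 carry 22 mature microRNAs within their span, and the sequences below are a selection of these, with Dleu2 for its shared seed. Those within Meg3, a host that also fell at 8 Gy, are not shown. They are mature sequences of RefSeq on GRCm38.p6, 5′ to 3′, with the seed, bases 2 to 8, in capitals. The mature microRNAs themselves were not measured here. The host is Mir22hg for the first pair, Mir100hg for the next 3, Gm49890 for miR-31-5p, Mir142hg for the next pair and Dleu2 for the last pair, whose members share a seed.
miR-22-5p: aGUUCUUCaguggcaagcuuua
miR-22-3p: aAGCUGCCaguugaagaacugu
miR-100-5p: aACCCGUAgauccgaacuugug
let-7a-2-3p: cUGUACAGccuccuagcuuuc
miR-125b-5p: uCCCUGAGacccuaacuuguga
miR-31-5p: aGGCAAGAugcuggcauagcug
miR-142a-5p: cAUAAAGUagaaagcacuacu
miR-142a-3p: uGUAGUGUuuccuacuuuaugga
miR-15a-5p: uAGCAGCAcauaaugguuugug
miR-16-5p: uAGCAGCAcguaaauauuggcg

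A further stretch shows why reads given to an lncRNA may belong to a coding gene. Gm10076, on chromosome 14, holds a copy of Rpl41, a ribosomal protein gene, with 99.5% identity over 383 aligned bases, and the copy keeps the whole 78-base coding sequence of Rpl41 at chr14:105681869-105681946 (mm10, plus strand, start and stop codons in capitals).
Gm10076: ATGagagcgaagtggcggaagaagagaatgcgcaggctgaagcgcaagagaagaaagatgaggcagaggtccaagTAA

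The libraries differed in depth, with 1 read worth 0.0155 to 0.0418 CPM, so a count of 0 allows at most 0.0465 to 0.125 CPM (3 reads, counting error only). Replicates 2 and 3 of anti-PD-1 at 4 Gy stood apart. In them 6086 and 5315 genes lacked any read, and in the other 14 libraries 2273 to 3851 did. Their scores on the first principal component were 81.5 and 98.3, against at most 46.8 elsewhere. Results that use them are given with and without them. All 200 lncRNA genes had reads in every library and passed the filter of 1 CPM in at least 2 libraries.

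Mean levels ran from 1086 CPM for Neat1 to 4.33 CPM for Gm17041, with a median of 8.39 CPM. The last genes kept, Gm11131, Gm49668 and Gm17041, had means of 4.36, 4.35 and 4.33 CPM, and the first left out, 2810402E24Rik, Six3os1 and Gm26542, had 4.30, 4.29 and 4.29 CPM. Ranking by the median kept 189 of the 200. The 200 genes held 77.9% of the CPM of all 4618 lncRNA genes, and 0.450 to 0.811% of a library's CPM. Their sum ran from 5492 to 7028 CPM at 0 Gy (median 6093), 5012 to 7064 CPM at 4 Gy (median 6602) and 4115 to 5956 CPM at 8 Gy (median 4942). Neat1 alone made up 8.82 to 32.2% of that sum, and without it the medians were 4766, 4790 and 4386 CPM at 0, 4 and 8 Gy.

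**Figure D1:**
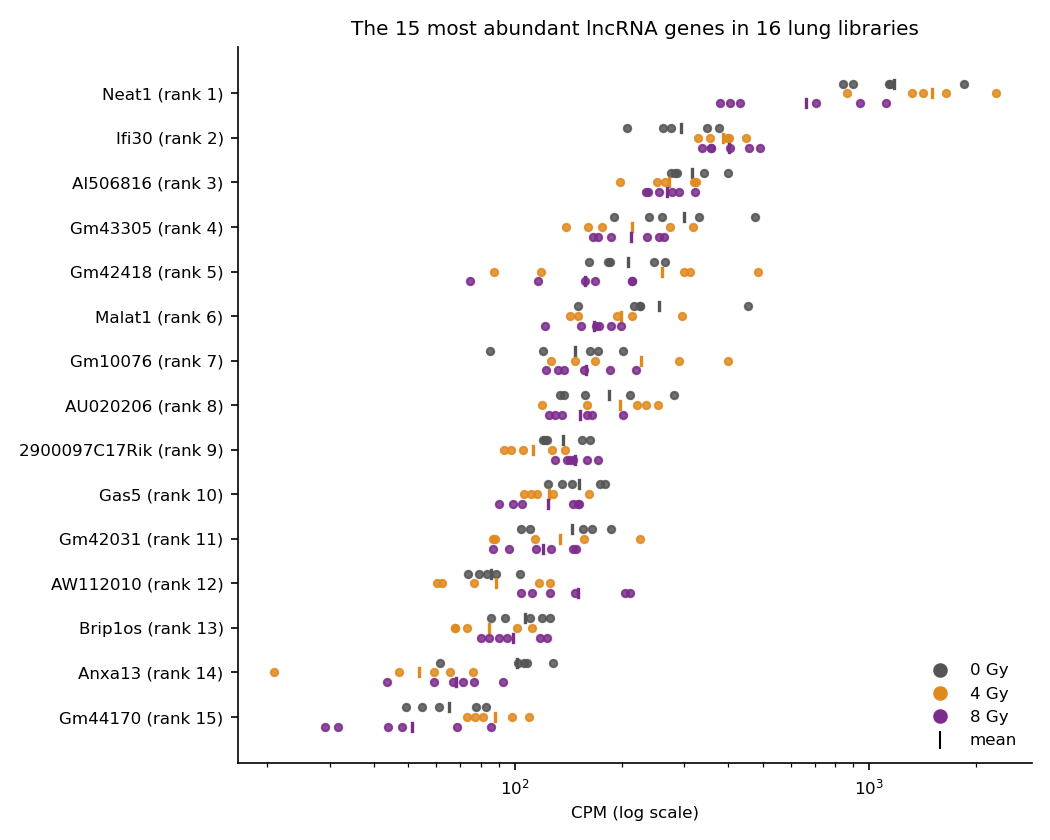
Levels of the 15 most abundant lncRNA genes in CPM (log axis), with 1 point per library placed by dose (0, 4 and 8 Gy). Neat1 is the highest by mean, at 1086 CPM, and its points spread from 379 to 2275 CPM.

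Neat1, which scaffolds paraspeckles, and Malat1, which sits in nuclear speckles, are the best known of the most abundant genes. Neat1 (chr19:5824708-5845478, minus strand) has no annotated gene on the other strand. Scaled to exon length, the order changed: Gm10076 had the highest level, 460 CPM per kb, before Ifi30 with 370, AW112010 with 138, Gm44170 with 122 and Gm42418 with 112 CPM per kb. On the same scale Neat1 had 52.3 and Malat1 29.3 CPM per kb. Gm10076 shares its sequence with Rpl41, all 549 exon bases of Gm44170 lie within exons of Sec61a1, a subunit of the protein translocon, and Gm42418 belongs to the ribosomal RNA repeats, so reads of these 3 cannot be told apart from those of their partners.

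The class given in the table did not always hold elsewhere. GENCODE M21 calls 79 of the genes lincRNA (between genes), 55 antisense and 55 processed transcripts, with 6 at bidirectional promoters, 3 within introns of a gene on the same strand, 1 sense-overlapping and 1, Gm10134, protein-coding. RefSeq on the same build had an entry for 129 of the 200 by symbol and chromosome, of which 120 were lncRNA, 2 pseudogenes and 7 protein-coding. The coding ones included Ifi30, the second most abundant gene, which is the lysosomal thiol reductase that prepares antigens for MHC class II, and Anxa13, an epithelial annexin. Both are kept here because the rule takes the class in the table.

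Overlap with another gene was the rule. Of the 200 genes, 123 overlapped a gene on the other strand, 107 of them within exons and 83 of them a protein-coding gene. The partner had the higher mean CPM for 86 of the 123. On the same strand 52 overlapped a gene, 32 within exons. These counts are over the genes of the deposited table, and against all genes of GENCODE M21, small RNA genes included, 35 of the 200 overlapped none on either strand. Near-identical sequence elsewhere (at least 95% identity over at least 100 bases) was found for 62, and for 50 of these in a coding gene. The sources used here do not say whether reads were counted by strand, so reads of an lncRNA and of its partner cannot be told apart wherever exons overlap.

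The first question the design poses is what differed between doses over both antibodies. At 8 Gy against 0 Gy 63 of the 200 genes passed an adjusted p of 0.05 (limma on log2(CPM + 0.5), Benjamini-Hochberg over 17546 genes), 7 higher and 56 lower. The background over all genes tested was 20.7% called, 4.68% higher and 16.1% lower. The median log2 difference was -0.32 over the 200 genes and -0.09 over all genes tested, and 146 of the 200 were below 0. Among the other 797 lncRNA genes tested, 12 rose and 184 fell, with a median of -0.28. The share called was 32.5% of the 123 with a gene on the other strand and 29.9% of the other 77. With each library scaled by quantiles, 14 rose and 35 fell, and the median of all genes moved to 0.03. The count was 28 without replicate 2 of anti-PD-1 at 0 Gy, 40 without replicate 1 of anti-PD-1 at 8 Gy and 69 without the 2 libraries that stood apart, 61 of them among the 63.

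**Figure D2:**
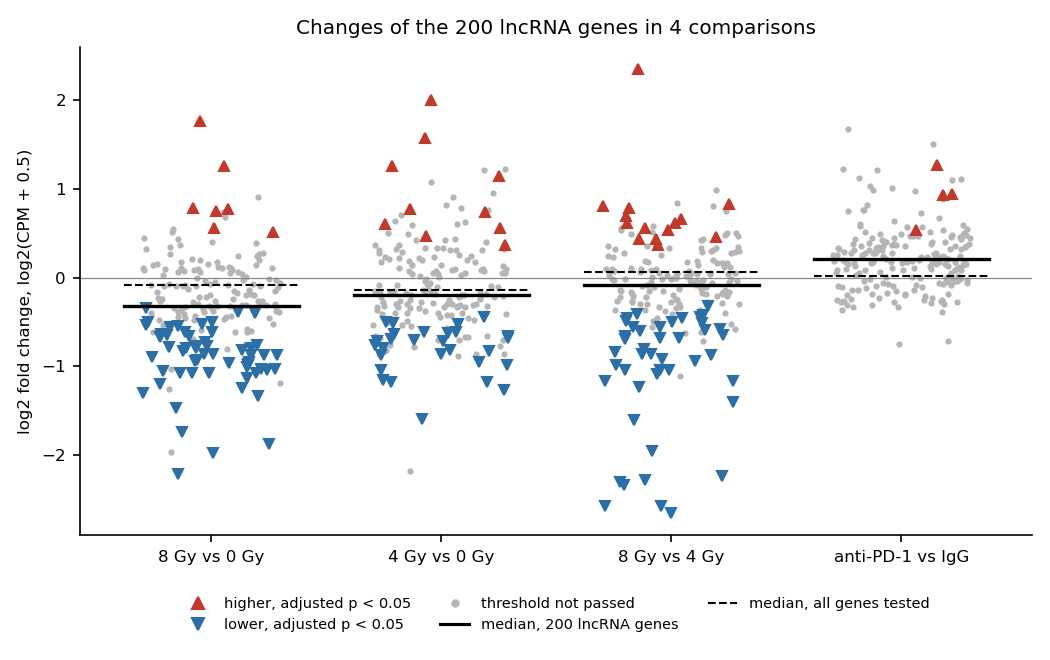
Log2 differences of the 200 lncRNA genes in 4 comparisons, 1 point per gene, with red upward triangles for genes that passed higher and blue downward ones for genes that passed lower, and the medians of the 200 (solid line) and of all genes tested (dashed line). At 8 Gy against 0 Gy the medians are -0.32 and -0.09, and 56 of the 63 called genes lie below 0.

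Of the 7 that rose at 8 Gy, 6 are described here: AW112010, Gm36161, Ifi30, AI662270, Zeb2os and A930037H05Rik. AW112010 (chr19:11047612-11055808, minus strand), an RNA of activated immune cells known to encode a small protein in mouse, overlaps no other gene. It had 204, 211 and 125 CPM at 8 Gy with anti-PD-1 and 104, 112 and 148 CPM at 8 Gy with IgG. At 0 Gy it had 103 and 83.2 CPM with anti-PD-1 and 79.2, 88.3 and 73.9 CPM with IgG. The 6 libraries at 8 Gy were all above the 5 at 0 Gy, and its log2 difference was 0.75 ± 0.15 (SE; limma adjusted p = 0.00352).

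The largest rise was that of Gm36161 (chr13:120010390-120018931, plus strand), with 20.7, 15.8 and 8.79 CPM at 8 Gy with anti-PD-1 and 16.9, 19.1 and 26.6 CPM at 8 Gy with IgG, against 2.75 and 3.16 CPM at 0 Gy with anti-PD-1 and 3.84, 10.1 and 9.40 CPM at 0 Gy with IgG. The lowest 8 Gy library fell among the highest unirradiated ones, and the log2 difference was 1.77 ± 0.31 (limma adjusted p = 0.00217). It shares 95.7% identity over 1541 aligned bases with Gm21188 and overlaps Gm21370 on the other strand.

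Ifi30 had 337 to 491 CPM at 8 Gy (median 381) and 207 to 375 CPM at 0 Gy (median 276), with a log2 difference of 0.52 ± 0.12 (limma adjusted p = 0.0108, 0.0653 without replicate 2 of anti-PD-1 at 0 Gy). AI662270 rose by a log2 difference of 0.77 ± 0.14 (limma adjusted p = 0.00271). Zeb2os lies opposite Zeb2, a transcription factor, and A930037H05Rik opposite Rnf213, a ubiquitin ligase. In both pairs the lncRNA and the coding gene rose together, with log2 differences of 0.78 and 0.67 for Zeb2os and Zeb2 and 0.56 and 0.77 for A930037H05Rik and Rnf213. Without replicate 2 of anti-PD-1 at 0 Gy the adjusted p was 0.0682 for Zeb2os and 0.061 for A930037H05Rik, and for the second it was also over 0.05 without replicate 1 of either anti-PD-1 group compared.

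Of the monocyte and macrophage markers 4 of 8 rose at 8 Gy against 0 Gy and 0 fell, beside 4.68% higher over all genes tested. Their sum with anti-PD-1 was 5837, 5453 and 4951 CPM at 8 Gy, against 3188 and 4047 CPM at 0 Gy. With IgG the sum overlapped between doses, at 7061, 6007 and 6838 CPM at 8 Gy and 6825, 6938 and 5691 CPM at 0 Gy. Of the T and NK cell markers 2 of 8 rose, of the neutrophil markers 1 of 6 rose and 1 fell, and of 6 B cell markers 0 changed. All 7 red cell genes rose. None of these markers was without reads in every library, and the part of cell composition in the rises was not tested.

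Among the 56 that fell, the RNAs that host snoRNAs were the largest named group. Of all genes tested 16.1% fell, with a median log2 difference of -0.09, and of the 200 genes 56 fell. Whether the hosts fell more often than the rest of the 200 was not tested. Of 17 hosts among the 200 genes 6 fell and 0 rose, with a median of -0.39. The count was 5 with quantile scaling and 4 with equal library medians, all lower, and it was 3 without replicate 2 of anti-PD-1 at 0 Gy or replicate 2 of IgG at 8 Gy. The 21 genes with an annotated snoRNA in their span, whatever their name, gave 6 falls and 0 rises with a median of -0.35. At 4 Gy against 0 Gy 1 of the 17 fell, and at 8 Gy against 4 Gy 4 fell.

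Snhg17 (chr2:158353700-158361580, minus strand), which holds 3 annotated snoRNA genes and has no gene on the other strand, had 27.7, 34.6 and 42.6 CPM at 8 Gy with anti-PD-1 and 23.5, 19.5 and 21.3 CPM at 8 Gy with IgG, against 62.8 and 71.8 CPM at 0 Gy with anti-PD-1 and 59.5, 47.1 and 43.6 CPM at 0 Gy with IgG. Every 8 Gy library was below every unirradiated one, and the log2 difference was -1.08 ± 0.14 (limma adjusted p = 0.000425). The 5 libraries at 4 Gy ran from 31.7 to 56.4 CPM with a median of 36.8 CPM.

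Snhg16 (chr11:116671660-116675799, plus strand) had 7.30, 8.57 and 11.5 CPM at 8 Gy with anti-PD-1 and 5.86, 4.59 and 5.09 CPM at 8 Gy with IgG. At 0 Gy it had 14.5 and 16.5 CPM with anti-PD-1 and 11.4, 9.14 and 8.61 CPM with IgG. Within each antibody the 8 Gy libraries were below the unirradiated ones, and the log2 difference was -0.80 ± 0.15 (limma adjusted p = 0.00331). St6galnac2, a sialyltransferase gene that shares 497 exonic bases with it from the other strand, fell by 1.92 on the log2 scale.

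The other snoRNA hosts that fell were 1110038B12Rik, Snhg5, Snhg12 and Gas5, with log2 differences of -0.63, -0.50, -0.40 and -0.35. Gas5 is known to build up when growth stops, and of this group it was the most abundant. Without replicate 2 of anti-PD-1 at 0 Gy the adjusted p was 0.0808 for Gas5 and 0.091 for Snhg5, and without replicate 2 of IgG at 8 Gy 0.0589 and 0.0574. That of Gas5 was 0.051 to 0.0577 without replicate 1 of IgG at 0 Gy or of anti-PD-1 at 0 or 8 Gy. With equal library medians the limma adjusted p of Gas5 was 0.0695. With an additive model it was 0.129 for Gas5 and 0.159 for Snhg5. Snhg1, Zfas1 and Dancr, with log2 differences of -0.39, -0.20 and -0.62, did not pass, nor did 2410006H16Rik with 0.04 and Snhg6 with 0.11.

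**Figure D3:**
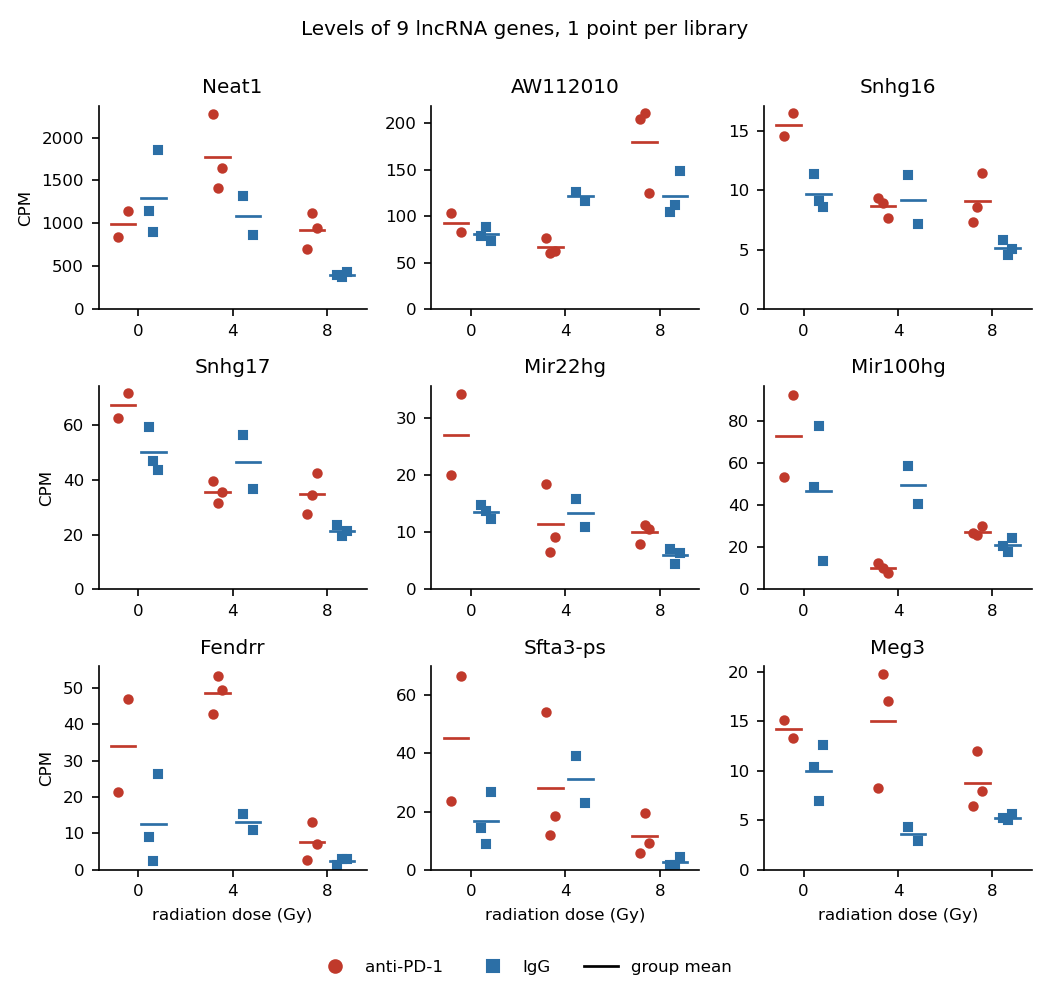
CPM of 9 lncRNA genes in every library, by dose, with anti-PD-1 as circles on the left and IgG as squares on the right of each dose, and a line at each group's mean. AW112010 has its highest values at 8 Gy, and the 8 Gy libraries of Snhg17 and Mir22hg all lie below the 0 Gy libraries.

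Of the 8 genes with a mature microRNA in their span 4 fell at 8 Gy against 0 Gy and 0 rose, with a median log2 difference of -0.57. The 4 that fell were Mir22hg, Mir100hg, Meg3 and Gm49890. On the list of microRNA hosts chosen by name, which includes Mirt1 although no microRNA is annotated within it, 2 of 5 fell and 0 rose. Mir22hg (chr11:75461539-75466676, plus strand), the host of miR-22, had 8.04, 11.3 and 10.6 CPM at 8 Gy with anti-PD-1 and 7.07, 4.48 and 6.35 CPM at 8 Gy with IgG, against 20.0 and 34.1 CPM at 0 Gy with anti-PD-1 and 14.7, 13.7 and 12.3 CPM at 0 Gy with IgG. The dose groups did not overlap, and the log2 difference was -1.25 ± 0.24 (limma adjusted p = 0.00301).

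Mir100hg (chr9:41327077-41716994, plus strand), the host of miR-100, let-7a-2 and miR-125b, had 26.8, 25.8 and 30.1 CPM at 8 Gy with anti-PD-1 and 20.9, 18.0 and 24.3 CPM at 8 Gy with IgG, against 53.4 and 92.7 CPM at 0 Gy with anti-PD-1 and 48.8, 78.0 and 13.6 CPM at 0 Gy with IgG. Replicate 3 of IgG at 0 Gy was the lowest of these 11 libraries, so the groups overlapped. The log2 difference was -1.08 ± 0.34 (limma adjusted p = 0.0352), and the adjusted p was 0.0527 to 0.0847 on leaving out singly any library of IgG at 8 Gy, replicate 1 of IgG at 0 Gy, or replicate 1 or 2 of anti-PD-1 at 8 Gy, and 0.154 without replicate 2 of anti-PD-1 at 0 Gy. With quantile scaling the limma adjusted p of Mir100hg was 0.0523, with equal library medians 0.0556 and with a replicate block 0.0588. It was 0.0647 with only the groups compared and 0.218 with an additive model. Gm49890, the host of miR-31, fell by 0.97 on the log2 scale (limma adjusted p = 0.022). Dleu2, the host of miR-15a and miR-16, and Mirt1 had log2 differences of -0.17 and -0.31 and did not pass, nor did Mir142hg, Snhg20 and Gm35853 with -0.31, -0.38 and 0.21.

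Neat1 and Meg3 were the 2 of 7 architectural and nuclear RNAs that fell at 8 Gy, and 0 rose, beside 16.1% lower over all genes tested. Neat1 had 707, 1117 and 942 CPM at 8 Gy with anti-PD-1 and 405, 379 and 431 CPM at 8 Gy with IgG, against 843 and 1142 CPM at 0 Gy with anti-PD-1 and 1139, 896 and 1852 CPM at 0 Gy with IgG. The low libraries were those with IgG, which were below all others, while the anti-PD-1 libraries at 8 Gy overlapped those at 0 Gy. Over both antibodies the log2 difference was -0.86 ± 0.20 (limma adjusted p = 0.00881, 0.051 without replicate 2 of anti-PD-1 at 0 Gy). It was -0.11 ± 0.30 within anti-PD-1 (adjusted p = 0.884) and -1.61 ± 0.27 within IgG (adjusted p = 0.00389), but the difference between the arms, 1.5, did not pass (limma adjusted p = 0.711).

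Meg3, an imprinted RNA made from the maternal chromosome and known from mesenchyme, fell by 0.77 on the log2 scale (limma adjusted p = 0.0321). On leaving out singly any library of IgG at 8 Gy or of anti-PD-1 at 0 Gy, replicate 1 or 3 of IgG at 0 Gy, or replicate 1 or 3 of anti-PD-1 at 8 Gy, the adjusted p was 0.0526 to 0.0989. The limma adjusted p of Meg3 was also 0.0978 with quantile scaling, 0.0658 with equal library medians and 0.062 with an additive model. Malat1 had a log2 difference of -0.59 (adjusted p = 0.054), and Tug1, Pvt1 and Oip5os1 had -0.04, 0.06 and 0.09. Of 6 RNAs linked to the p53 response 4 fell and 0 rose, namely Neat1, Gas5, Mir22hg and Meg3, beside 16.1% lower over all genes tested. Of the coding targets of p53 7 of 10 rose, beside 4.68% higher over all genes tested. Of 8 immune-cell RNAs AW112010 rose, and Mir22hg and Gm26532 fell. The adjusted p of Gm26532, 0.0336, was 0.051 to 0.101 without replicate 1 of IgG at 0 Gy, either of anti-PD-1 at 0 Gy, replicate 1 of anti-PD-1 at 8 Gy, or replicate 2 or 3 of IgG at 8 Gy. For Gm26532 the limma adjusted p was also 0.0774 with quantile scaling and 0.0583 with equal library medians. None of the 3 genes from ribosomal RNA repeats passed.

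The largest falls were those of RNAs beside developmental genes of lung. Sfta3-ps (chr12:56488321-56529427, minus strand), also named Nanci, lies beside Nkx2-1, the transcription factor of lung epithelium. It had 5.73, 19.5 and 9.27 CPM at 8 Gy with anti-PD-1 and 1.42, 1.71 and 4.24 CPM at 8 Gy with IgG, against 23.7 and 66.9 CPM at 0 Gy with anti-PD-1 and 14.4, 8.65 and 26.8 CPM at 0 Gy with IgG. Within each antibody the 8 Gy libraries were the lower ones, and the log2 difference was -2.21 ± 0.45 (limma adjusted p = 0.00462). Nkx2-1 fell by 1.37 on the log2 scale (limma adjusted p = 0.0244).

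Fendrr (chr8:121054882-121083110, minus strand) overlaps Gm20388 on the other strand outside exons. It lies beside Foxf1, a transcription factor of lung mesenchyme and vessels, and had 2.78, 13.1 and 7.01 CPM at 8 Gy with anti-PD-1 and 1.27, 2.81 and 2.82 CPM at 8 Gy with IgG, against 21.2 and 47.0 CPM at 0 Gy with anti-PD-1 and 8.90, 2.47 and 26.3 CPM at 0 Gy with IgG. Replicate 2 of IgG at 0 Gy was as low as the irradiated libraries. The log2 difference was -1.98 ± 0.48 (limma adjusted p = 0.0113, 0.0654 without replicate 2 of anti-PD-1 at 0 Gy), and Foxf1 had a log2 difference of -0.60 (adjusted p = 0.285). All 3 genes on the list of lung and mesenchyme RNAs, Fendrr, Mir100hg and Meg3, fell, beside 16.1% lower over all genes tested.

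Some markers of structural lung cells were also lower, beside 16.1% lower over all genes tested. Of the fibroblast markers 5 of 8 fell at 8 Gy against 0 Gy and 0 rose, of the ciliated cell markers 5 of 8, of the alveolar type 1 markers 4 of 8, and 1 each of 8 alveolar type 2, 8 endothelial and 7 club cell markers. The summed fibroblast markers reached 838 to 1684 CPM at 8 Gy, against 1234 to 2665 CPM at 0 Gy. Summed alveolar type 1 markers reached 148 to 443 CPM at 8 Gy, against 207 to 584 CPM at 0 Gy. Summed ciliated cell markers were 61.0 to 147 CPM at 8 Gy, within their range of 34.8 to 221 CPM at 0 Gy. The club cell sum was 808 to 5879 CPM at 8 Gy, against 1200 to 5257 CPM at 0 Gy. The part of these cells in the falls of Sfta3-ps, Fendrr, Mir100hg and Meg3 was not tested.

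Other large falls lay on strands opposite coding genes. A530020G20Rik fell by 1.88 on the log2 scale with Slc44a3, Gm9752 fell by 1.74 with 4833420G17Rik, and Gm37422 fell by 1.34 opposite Smyd2, a lysine methyltransferase gene whose log2 difference was -0.16 (adjusted p = 0.253). AI480526 (chr5:123133723-123141666, minus strand) and Gm38102 (chr5:123133939-123137695, plus strand) share 1525 exonic bases on opposite strands, and both are among the 200. AI480526 had 5.85, 12.3 and 11.9 CPM at 8 Gy with anti-PD-1 and 6.15, 5.37 and 4.86 CPM at 8 Gy with IgG, against 18.2 and 21.0 CPM at 0 Gy with anti-PD-1 and 19.9, 15.8 and 17.7 CPM at 0 Gy with IgG. Its 8 Gy libraries were all below the unirradiated ones, as were those of Gm38102, which ran from 2.12 to 3.47 CPM at 8 Gy, against 4.5 to 9.05 CPM at 0 Gy. Their log2 differences were -1.31 ± 0.19 and -1.14 ± 0.17.

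Counted by the libraries alone, 2 of the 200 genes had all 6 libraries at 8 Gy above the 5 at 0 Gy, AW112010 and Bc1, and 10 had all of them below. Of all genes tested 1.54% had their 8 Gy libraries all above and 4.91% all below. Bc1 itself missed the threshold (limma adjusted p = 0.0584). The 10 were Snhg17, AI480526, Gm38102, Mir22hg, 2610507I01Rik, E130307A14Rik, Gm48529, Gm9752, 2310015A10Rik and Gm13563, named after their values were seen.

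At 4 Gy against 0 Gy 38 of the 200 genes passed, 10 higher and 28 lower, near the background of 17.5% of all genes tested, 5.33% higher and 12.2% lower. The median log2 difference was -0.20 over the 200 genes and -0.14 over all genes tested. Without the 2 libraries that stood apart, which leaves 1 library with anti-PD-1 at 4 Gy, 2 genes passed, Gm43305 and AC160336.1, both lower at 4 Gy, and 0.519% of all genes, while all 38 log2 differences kept their sign. With equal library medians 12 rose and 11 fell, with quantile scaling 13 rose and 17 fell, and the median of all genes moved to -0.03 in the first case. Leaving out 1 library also moved the count: for anti-PD-1 it was 15 and 6 without replicates 1 and 2 at 0 Gy, and 72, 18 and 15 without replicates 1, 2 and 3 at 4 Gy. For IgG it was 16, 20 and 70 without replicates 1, 2 and 3 at 0 Gy, and 21 and 0 without replicates 1 and 2 at 4 Gy.

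The rises at 4 Gy were led by RNAs opposite coding genes. D330041H03Rik (chr17:24404649-24414542, minus strand), which shares 914 exonic bases with Abca3, the surfactant lipid transporter of alveolar type 2 cells, had 77.3, 102 and 122 CPM at 4 Gy with anti-PD-1 and 37.1 and 39.1 CPM at 4 Gy with IgG. At 0 Gy it had 20.5 and 32.2 CPM with anti-PD-1 and 23.2, 15.9 and 43.3 CPM with IgG. The anti-PD-1 libraries at 4 Gy stood above all others, and the IgG ones lay within the unirradiated range. The log2 difference was 1.25 ± 0.26 (limma adjusted p = 0.0134, 0.0746 without replicate 2 of IgG at 4 Gy). It was 1.08 without the 2 libraries that stood apart, with an adjusted p of 0.121.

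Gm43579, which shares 869 exonic bases with the RNA helicase gene Ddx54, had 13, 26.2 and 30.2 CPM at 4 Gy with anti-PD-1 and 8.05 and 6.81 CPM at 4 Gy with IgG, against 2.87 and 6.51 CPM at 0 Gy with anti-PD-1 and 6.42, 5.71 and 9.04 CPM at 0 Gy with IgG. The 3 anti-PD-1 libraries at 4 Gy were above the rest. Its log2 difference was 1.14 ± 0.24 (limma adjusted p = 0.0143, 0.0718 without replicate 2 of IgG at 4 Gy). It was 0.78 without the 2 libraries that stood apart, with an adjusted p of 0.129.

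The largest fall at 4 Gy, by 1.6 on the log2 scale, was that of 1700110K17Rik, opposite Gramd1b (limma adjusted p = 0.0173), and Plut, known in human as a transcript beside the islet factor PDX1, fell by 0.80. Without replicate 2 of IgG at 4 Gy their adjusted p was 0.087 and 0.0766. Without the 2 libraries that stood apart their log2 differences were -1.29 and -0.74, with adjusted p of 0.149 and 0.0835. The adjusted p of 1700110K17Rik was 0.0689 without replicate 2 of anti-PD-1 at 0 Gy.

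Many markers of lung epithelium and vessels rose at 4 Gy. Of them 7 of 8 alveolar type 2, 6 of 8 endothelial and 4 of 8 alveolar type 1 markers were higher than at 0 Gy. So were 4 of 8 ciliated and 4 of 7 club cell markers, and 0 of these markers were lower. Of all genes tested 5.33% rose and 12.2% fell. The marker counts were not taken without the 2 libraries that stood apart. The highest club and ciliated cell sums, 18905 and 537 CPM, were in 1 of those 2, replicate 3 of anti-PD-1. The highest alveolar type 2 sum was in replicate 2 of IgG. Summed alveolar type 2 markers were 5808 to 14158 CPM at 4 Gy, against 1099 to 5512 CPM at 0 Gy. The mitochondrial share of a library's CPM also separated these doses, with 4.14 to 6.54% at 4 Gy, against 1.01 to 3.73% at 0 Gy. At 8 Gy it was 1.69 to 8.23%, which overlapped both. The part of these cells and of the mitochondrial share in the results at 4 Gy was not tested.

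Between 8 Gy and 4 Gy 58 of the 200 genes passed, 14 higher and 44 lower, where 34.3% of all genes tested passed, 17% higher and 17.2% lower. The median log2 difference was -0.08 over the 200 genes and 0.06 over all genes tested. With quantile scaling 23 rose and 34 fell. Without the 2 libraries that stood apart 27 genes passed, 21 of them among the 58, and 12.5% of all genes. The count was 30 without replicate 1 of IgG at 4 Gy and 37 without replicate 1 of anti-PD-1 at 8 Gy.

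B430010I23Rik (chr8:41017468-41024216, plus strand) showed the largest difference, -2.66 ± 0.35 on the log2 scale (limma adjusted p = 0.000339). It had 1.01, 4.05 and 2.04 CPM at 8 Gy with anti-PD-1 and 0.154, 0.437 and 0.541 CPM at 8 Gy with IgG, against 10.3, 8.37 and 14 CPM at 4 Gy with anti-PD-1 and 10.2 and 5.43 CPM at 4 Gy with IgG. All 8 Gy libraries were below all 4 Gy ones. Mtus1, a gene for a microtubule-associated protein that shares 612 exonic bases with it, had a log2 difference of -0.36 and did not pass.

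D330041H03Rik had 19.1, 35.8 and 35.2 CPM at 8 Gy with anti-PD-1 and 5.81, 4.84 and 4.32 CPM at 8 Gy with IgG, all below its 4 Gy libraries given above, and a log2 difference of -2.29 ± 0.24 (limma adjusted p = 0.000141). Abca3 had a log2 difference of -0.50 in the same comparison (limma adjusted p = 0.00165). Against 0 Gy, D330041H03Rik had a log2 difference of 1.25 at 4 Gy and -1.04 at 8 Gy, comparisons that share their unirradiated libraries. These are means over 2 arms that differed. At 8 Gy the IgG libraries were all below the unirradiated IgG ones, while the anti-PD-1 libraries overlapped the unirradiated anti-PD-1 ones. At 4 Gy only the anti-PD-1 libraries stood above the unirradiated range.

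AU040972 (chr11:79481719-79484031, minus strand) lies within an intron of Nf1, a tumour suppressor gene, on the other strand. It had 2.66, 23.9 and 17.1 CPM at 8 Gy with anti-PD-1 and 3.08, 1.81 and 2.47 CPM at 8 Gy with IgG, against 28.9, 28.2 and 57.6 CPM at 4 Gy with anti-PD-1 and 29.3 and 16.4 CPM at 4 Gy with IgG. The highest 8 Gy libraries overlapped the lowest 4 Gy library, and the log2 difference was -2.34 ± 0.45 (limma adjusted p = 0.0023). Sfta3-ps fell by 2.31, Fendrr by 2.57, Neat1 by 1.17 and Crnde, an RNA of proliferating and developing tissue, by 1.04. With Sfta3-ps, Nkx2-1 fell by 2.43 on the log2 scale, and with Fendrr, Foxf1 fell by 1.48.

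Of the 14 that rose, AY036118 from the ribosomal RNA repeats had the largest log2 difference, 2.35 ± 0.77 (limma adjusted p = 0.031). The adjusted p was 0.0523 to 0.1 without either library of IgG at 4 Gy, replicate 2 or 3 of IgG at 8 Gy or of anti-PD-1 at 4 Gy, or replicate 1 or 3 of anti-PD-1 at 8 Gy, and without the 2 libraries that stood apart the log2 difference was 1.31 with an adjusted p of 0.27. AC160336.1 rose by 0.79 (limma adjusted p = 0.00247). AW112010 rose by 0.69, and without the 2 libraries that stood apart its log2 difference was 0.59 with an adjusted p of 0.0531. All 8 alveolar type 2, type 1, ciliated and endothelial markers and all 7 club cell markers fell at 8 Gy against 4 Gy. Of all genes tested 17.2% fell, and the markers were not counted without the 2 libraries that stood apart. The sum of the club cell markers was 808 to 5879 CPM at 8 Gy, against 5703 to 18905 CPM at 4 Gy. That of the fibroblast markers overlapped, with 838 to 1684 CPM at 8 Gy and 1009 to 2125 CPM at 4 Gy. The part of these cells in the falls was not tested.

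Coding genes on the other strand were set beside the lncRNA genes in 81 pairs in which both were tested. Between 8 Gy and 0 Gy 28 of the lncRNA genes and 24 of the coding genes passed. In 10 pairs both passed with the same sign, in 0 with opposite signs, and in 18 the lncRNA gene passed alone, 15 of them with a partner of the same sign. At 4 Gy against 0 Gy both passed in 3 pairs and the lncRNA gene alone in 14, and at 8 Gy against 4 Gy in 6 and 20 pairs, with 0 of opposite sign in either. Of all genes tested 20.7, 17.5 and 34.3% passed in these comparisons, in the same order. Whether pairs passed together more often than unrelated genes would was not tested. The lncRNA gene was the more abundant in 3 of the 81 pairs, Gas5 with Zbtb37, Brip1os with Med13 and Dleu2 with Trim13.

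**Figure D4:**
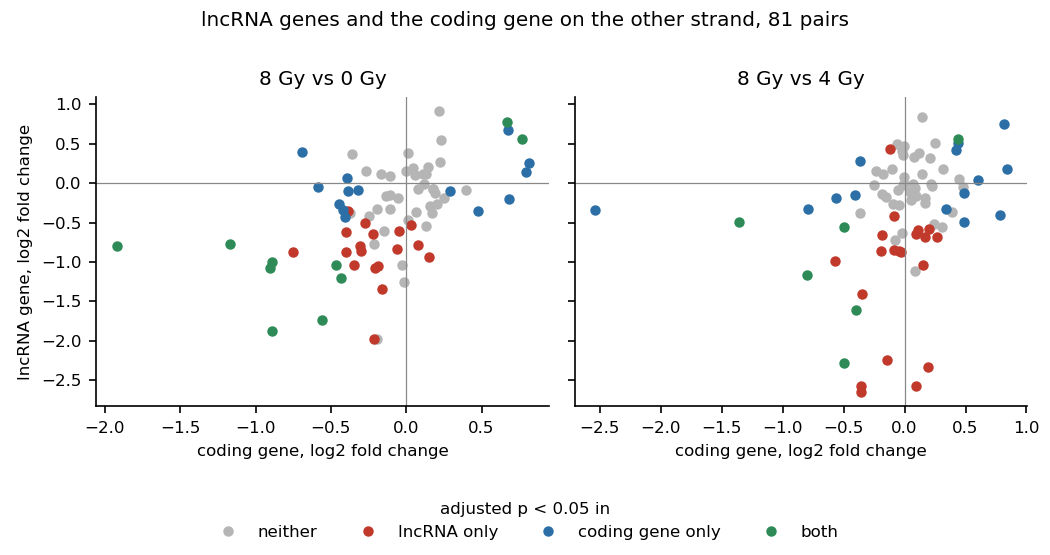
Log2 difference of the lncRNA gene (y axis) against that of its protein-coding partner on the other strand (x axis) in 81 pairs, at 8 Gy against 0 Gy and at 8 Gy against 4 Gy, coloured by which gene passed. In the first panel 10 pairs passed together, all with the same sign, and 18 passed in the lncRNA gene alone. Of all genes tested 20.7% passed in that comparison.

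In the pairs that follow the values parted. For D330041H03Rik the log2 differences at 4 Gy and 8 Gy against 0 Gy were 1.25 and -1.04, where Abca3 had 0.03 and -0.46. Its libraries left the unirradiated range of their arm at 4 Gy only with anti-PD-1 and at 8 Gy fell below it only with IgG. Without replicate 2 of anti-PD-1 at 0 Gy the limma adjusted p of D330041H03Rik at 8 Gy was 0.0596. For B430010I23Rik they were 1.58 and -1.08, where Mtus1 had 0.16 and -0.21 and did not pass. At 4 Gy the limma adjusted p of B430010I23Rik was 0.0192, and the call was lost under 5 of 25 alternatives. Without the 2 libraries that stood apart its log2 difference at 4 Gy was 1.55. The adjusted p of B430010I23Rik at 8 Gy against 0 Gy, 0.0424, was 0.051 to 0.157 on leaving out singly any library of IgG at 8 Gy or of anti-PD-1 at 0 Gy, replicate 1 or 3 of IgG at 0 Gy or of anti-PD-1 at 8 Gy, or replicate 2 of anti-PD-1 at 4 Gy. For B430010I23Rik at 8 Gy against 0 Gy the limma adjusted p was also 0.0898 with quantile scaling and 0.0595 with equal library medians. It was 0.0536 with no filter, 0.0599 with a pseudocount of 1, 0.0679 with only the groups compared and 0.0565 with an additive model. The difference between the genes of a pair was not tested.

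**Figure D5:**
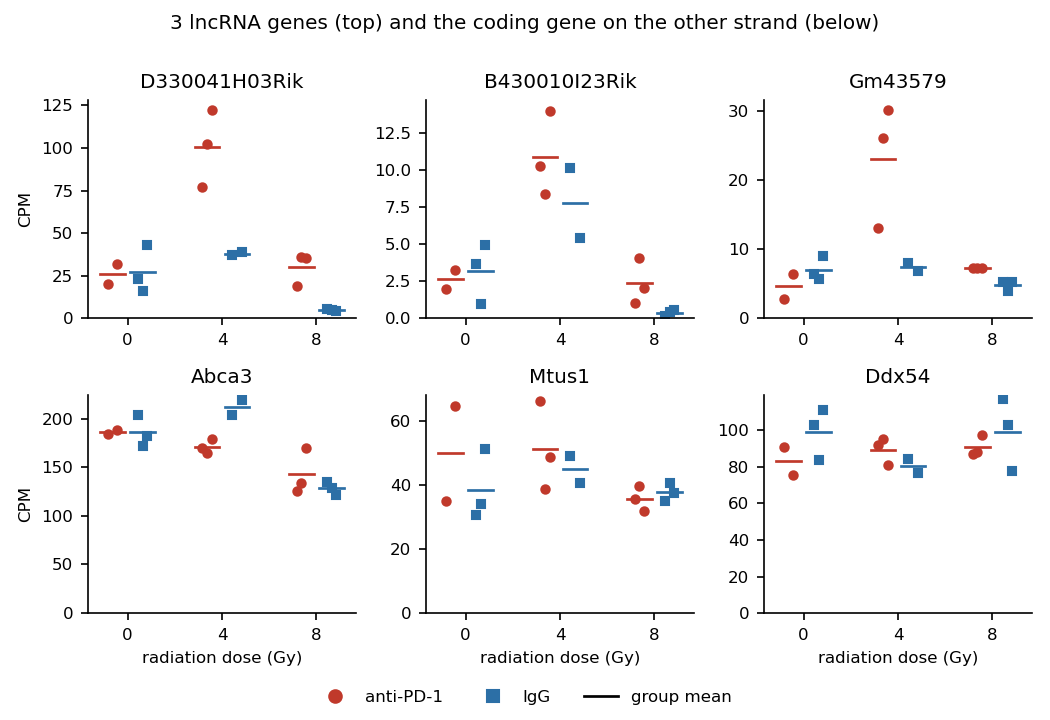
CPM of 3 lncRNA genes and of the coding genes opposite them in every library, by dose, with anti-PD-1 on the left and IgG on the right. D330041H03Rik spans 4.32 to 122 CPM and is highest in the anti-PD-1 libraries at 4 Gy.

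The antibody comparison asks what anti-PD-1 changed over all doses. Of the 200 genes 4 passed, all higher with anti-PD-1, where 0.234% of all genes tested passed, 0.165% higher and 0.0684% lower. The median log2 difference was 0.20 over the 200 genes and 0.01 over all genes tested, and 58 were below 0. No gene of the 200 had all its anti-PD-1 libraries above or below all its IgG libraries, and of all genes tested 0.0171% had them above and 0.0114% below. The number of the 200 genes called was 0 without the 2 libraries that stood apart. It was 30 without replicate 3 of IgG at 0 Gy, 26 without replicate 1 of anti-PD-1 at 4 Gy, 17 without replicate 1 of anti-PD-1 at 8 Gy, 5 without replicate 2 of IgG at 0 Gy and 0 on leaving out any other single library.

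The 4 genes were D330041H03Rik, Crnde, 4933439C10Rik and Gm49172, with log2 differences of 1.27 ± 0.20, 0.94 ± 0.17, 0.93 ± 0.15 and 0.54 ± 0.10 and limma adjusted p of 0.0374 for the first 3 and 0.0397 for Gm49172. At 0 Gy Crnde had 6.75 and 8.62 CPM with anti-PD-1, against 5.77, 3.63 and 8.14 CPM with IgG. At 4 Gy it had 9.74, 14 and 15.9 CPM with anti-PD-1, against 6.03 and 4.36 CPM with IgG, and at 8 Gy 4.76, 6.62 and 6.14 CPM with anti-PD-1, against 2.72, 1.85 and 2.54 CPM with IgG. At 4 and 8 Gy its anti-PD-1 libraries were all above the IgG libraries, and at 0 Gy they overlapped. Without the 2 libraries that stood apart the log2 differences of D330041H03Rik, Crnde, 4933439C10Rik and Gm49172 were 1.16, 0.81, 0.74 and 0.59, each with an adjusted p of 0.237.

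4933439C10Rik (chr11:59505662-59513647, plus strand), which overlaps Zkscan17 on the other strand, had 28.8 and 28.8 CPM at 0 Gy with anti-PD-1, against 21.7, 20.9 and 19.1 CPM at 0 Gy with IgG. At 4 Gy it had 19, 33.9 and 36.9 CPM with anti-PD-1, against 11.5 and 9.22 CPM with IgG, and at 8 Gy 11.3, 19.1 and 17.9 CPM with anti-PD-1, against 9.22, 6.86 and 8.90 CPM with IgG. At each dose every anti-PD-1 library was above every IgG library.

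Whether the change with dose differed between the antibodies was tested as an interaction, anti-PD-1 arm minus IgG arm. At 8 Gy against 0 Gy 0 of the 200 genes passed (limma; 0% of all genes tested), with 19 at an unadjusted p under 0.05. At 4 Gy against 0 Gy 23 passed, 10 higher and 13 lower, where 9.08% of all genes tested passed, 3.76% higher and 5.32% lower. The 2 libraries that stood apart are 2 of the 3 in 1 of the 4 groups of that test, and without them 0 passed, while all 23 kept their sign. The count was 57 without replicate 2 of IgG at 0 Gy, 55 without replicate 1 of anti-PD-1 at 4 Gy, 18 without replicate 3 of IgG at 8 Gy, 12 without replicate 1 of IgG at 8 Gy, 2 without replicate 3 of anti-PD-1 at 8 Gy and 0 on leaving out any other single library.

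Mir100hg was among the 13 that were lower. It had 12.8, 10.2 and 7.98 CPM at 4 Gy with anti-PD-1, against 53.4 and 92.7 CPM at 0 Gy with anti-PD-1, and 58.7 and 40.5 CPM at 4 Gy with IgG, against 48.8, 78.0 and 13.6 CPM at 0 Gy with IgG. All 3 anti-PD-1 libraries at 4 Gy were below the other 7. The interaction was -3.11 ± 0.71 on the log2 scale (limma adjusted p = 0.0394). Mir142hg, a host RNA of blood cells, went the other way with 2.49 (limma adjusted p = 0.0431), and of the 17 snoRNA hosts 3 were lower, Snhg1, Snhg3 and Snhg5 with -1.41, -2.24 and -1.22, and 1 was higher, Snhg20 with 1.5.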

How the data were processed

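Total RNA of 16 pools of whole lung was sequenced. Per the labels' protocols, libraries were made with the TruSeq RNA kit from 1 µg of RNA extracted with the RNeasy plus kit. STAR and Partek were used on mm10, per the submitters' processing notes. Their versions, the annotation and whether strand was used are not stated in those notes or labels. The deposited table holds CPM with 1e-04 where a gene has no reads, an offset of the authors. A library's CPM added up to 866773 to 915009. Of low values, 60.5 to 63.7% were whole reads within 0.02, so reads were not recovered and no count model was used.

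Groups were taken from the titles. The 17546 genes that reached 1 CPM in 2 or more libraries were fitted as log2(CPM + 0.5) with limma 3.58.1 (trend, robust; R 4.3.3, with data.table at version 1.17.8), as 6 group means without a replicate block. P-values are two-sided with Benjamini-Hochberg adjustment over all genes and a threshold of 0.05. The log2(CPM + 0.5) scale of the differences makes changes of low genes look smaller. A dose difference over both antibodies is the mean of the 2 arms' differences. The fit was tested on simulated data. Of 30095 positions, 29816 matched GENCODE M21 with a stop 1 base past the gene's end. Overlaps came from GENCODE, classes and microRNAs from RefSeq GRCm38.p6, and near-identical sequence from BLAST+ 2.17.0.

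The genes and lists were chosen with earlier results of these data known. Named genes are the 15 most abundant, the 6 largest changes and 3 lowest p in each direction of a main comparison among those with the same sign in each arm, up to 3 per direction elsewhere, up to 4 of each list, partners on the other strand, and 3 on either side of rank 200. Not all of these are reported here, and genes outside the rule were chosen after their values were seen. Alternatives tried were quantile scaling, equal library medians, no filter, pseudocounts of 0.1 and 1, a replicate block, only the groups compared, an additive model, ranking by the median, and leaving out each library or the 2 that stood apart.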

Additional observations from a re-analysis of the deposited data

Results flagged for a closer look

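At 4 Gy against 0 Gy 23 of the 200 genes passed the interaction test (anti-PD-1 arm minus IgG arm, limma with Benjamini-Hochberg adjustment). Of all genes tested 9.08% passed it. The count among the 200 was 0 with a replicate block and 0 with only the groups compared. Of 14 named calls in this test 0 held under every alternative. The 6 genes given here were chosen for the lowest p in each direction. The interactions on the log2 scale were 1.78 for Zeb2os, 1.02 for Gm10134, 1.40 for Gm28959, -1.68 for AC160336.1, -3.11 for Mir100hg and -1.22 for Snhg5. Adjusted p was 0.0334 for AC160336.1, 0.0398 for Snhg5 and 0.0394 for the other 4. Without replicates 2 and 3 of anti-PD-1 at 4 Gy, which leaves 1 library in that group, the interactions in the same order were 1.79, 0.81, 1.16, -2.01, -2.79 and -0.84, and the adjusted p was 0.185 to 0.300, so none of the 6 passed.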

How the results depend on the processing

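Of the calls of named genes at 8 Gy against 0 Gy, 17 of 35 held under all 25 alternatives, among them AW112010, Gm36161, Snhg17, Snhg16, Mir22hg, Sfta3-ps and AI480526. At 8 Gy against 4 Gy 10 of 34 did, at 4 Gy against 0 Gy 0 of 27, for anti-PD-1 against IgG 0 of 4 and for the interaction at 4 Gy 0 of 14. Without the 2 libraries that stood apart, 25 of the 27 calls at 4 Gy and 22 of the 34 at 8 Gy against 4 Gy were lost.

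The number of the 200 genes called at 4 Gy against 0 Gy was 23 with equal library medians, 0 with only the groups compared, 10 with an additive model of dose and antibody and 2 without the 2 libraries. At 8 Gy against 4 Gy it was 27 without the 2 libraries. For anti-PD-1 against IgG it was 0 with the additive model and 0 without the 2 libraries. For the interaction at 4 Gy it was 35 with quantile scaling, 6 with no filter on low values, 0 with only the groups compared and 0 without the 2 libraries. Leaving out libraries or groups leaves fewer samples, while the scalings, the filter setting and the additive model kept all 16 libraries. The cause of these changes in the counts was not tested. The interaction at 8 Gy gave 0 under each alternative. Leaving out 1 library at a time gave 28 to 74 calls at 8 Gy against 0 Gy, 0 to 72 at 4 Gy against 0 Gy, 30 to 67 at 8 Gy against 4 Gy, 0 to 30 for anti-PD-1 against IgG, 0 to 0 for the interaction at 8 Gy and 0 to 57 for that at 4 Gy.

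With the replicate number as a block, the counts were 57 at 8 Gy against 0 Gy, 25 at 4 Gy against 0 Gy, 52 at 8 Gy against 4 Gy, 1 for anti-PD-1 against IgG, 0 for the interaction at 8 Gy and 0 for that at 4 Gy. Libraries share only a number: the median correlation of deviations was -0.10 over 36 pairs with the same number and 0.02 over 70 pairs with different numbers.

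Signs that turned belonged to values that had not passed. Leaving out 1 library, the log2 difference of Gm10076 at 8 Gy against 0 Gy was -0.049 to 0.26. At 4 Gy against 0 Gy that of Gm42418 was -0.25 to 0.055, that of AU020206 -0.12 to 0.20 and that of AW112010 -0.024 to 0.13. Gm42418 was also 0.017 with equal library medians, and AW112010 -0.014 with the additive model. Depth limits the low genes most: in the shallowest library 1 read is worth 0.0418 CPM, and a count of 0 there allows up to 0.125 CPM.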
